A study of Mus musculus with 105 samples.

Results

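The collagen genes of mouse embryonic stem cells were followed through 31 groups of RNA-seq libraries in which the Polycomb subunit SUZ12 was deleted, restored, replaced by fusion proteins or degraded. A gene was taken as a collagen chain when its symbol is Col, a number, the letter a and a number, and Col4a1 and Col4a2 were left out. This gave 42 genes of the 53656 gene symbols in the 2 merged count tables, and the same 42 genes among the 27179 Entrez gene IDs of the per-library files. They were placed in 7 classes: 11 fibrillar chains, 6 basement membrane chains, 3 chains of the networks VIII and X, 6 beaded-filament chains of collagen VI, 9 fibril-associated (FACIT) chains, 4 transmembrane chains and 3 others.

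Collagens are extracellular matrix proteins whose chains wind around each other into a triple helix in the endoplasmic reticulum before export. Fibrillar chains build the fibres of connective tissue, FACIT chains sit on those fibres, and basement membrane chains form or decorate the sheets under epithelia and around the early embryo's endoderm. SUZ12 is a core subunit of Polycomb repressive complex PRC2, which methylates histone H3 at silent developmental genes, and RBBP5 is a core subunit of the COMPASS methyltransferases, which mark active promoters. Embryonic stem cells are known for keeping many developmental genes silent under PRC2.

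All groups held 3 libraries, in 5 datasets of embryonic stem cells. The panel of E14TG2a lines held wild type cells, a Suz12 knockout, and the knockout carrying wild-type SUZ12 (the rescue), S12N alone, S12N:SUV2, its dead form S12N:SUV2*, S12N:SD2, or its dead form S12N:SD2*. S12N is SUZ12 without its VEFS domain, the part known for binding the catalytic core of PRC2, and the labels do not spell out SUV2 or SD2. The SUV2 set and the SD2 set were made from cells whose RBBP5 carries an FKBP degradation tag. Each held that tagged line (R), R with Suz12 deleted (RS), and RS carrying S12N:SUV2 or S12N-SD2, and each line received DMSO or the degrader dTAG-13 for 24 h, at 500 nM in the SD2 set. All R, RS and fusion lines of these sets therefore carry the RBBP5 tag. The labels give RS the same line name in both sets and describe R alike, so the sets cannot be counted as independent clones. The degron line, called TCF, has SUZ12 joined to an auxin degron with OsTIR, and received DMSO for 48 h or the auxin IAA at 50 µM for 2, 4, 8, 24 or 48 h. The HP1 set held wild type cells, a Suz12 knockout, and the knockout with S12N, with full-length SUZ12, or with S12N joined to the HP1a chromodomain, which binds methylated histone H3. Each genotype was a line of its own, so line and genotype cannot be told apart.

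Library totals ran from 8799103 to 29967549 counts in the panel, from 18593298 to 22260796 in the SUV2 set, from 11444120 to 17784081 in the SD2 set, from 8308561 to 18810739 in the degron line and from 5476658 to 21722857 in the HP1 set. Suz12 mRNA, the check of the deletion, averaged 294 CPM (counts scaled to a common library total) in wild type panel cells and 55.99 CPM in the knockout, and the other knockouts stood at 32.0 to 61.2 CPM against 296 to 385 CPM in their controls. A gene was tested in a dataset only if it passed a filter on low counts. Of the 42 collagens, 32 passed in the panel, 26 in the SUV2 set, 31 in the SD2 set, 15 in the degron line and 19 in the HP1 set. A gene is said to rise or fall when edgeR's quasi-likelihood test gave an adjusted p under 0.05, corrected over all genes of its dataset. In bulk RNA, fewer cells of a type and less RNA per cell cannot be told apart.

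In unmodified cells the transcripts of these 42 chains were dominated by Col18a1, the basement membrane chain whose C-terminal end is released as endostatin. In wild type panel cells it stood at 82.9 CPM per kilobase of exon. The next chains on that length-corrected scale were Col9a2 (2.73), Col5a3 (1.79) and Col5a1 (1.44). With Col4a1 and Col4a2 left out, Col18a1 supplied 72.2% to 91.7% of the collagen counts across the panel groups. In the degron line, where its level was near 56.3 CPM, it supplied 51.8% to 78.5%. In no dataset did more than 7 collagens reach 10 CPM in any group. The following 9 chains never passed the filter: Col10a1, Col19a1, Col24a1, Col28a1, Col3a1, Col4a3, Col4a4, Col8a1 and Col9a1. The highest group mean among them was 1.04 CPM, for Col8a1, and Col3a1, a main chain of soft connective tissue fibres, did not exceed 0.393 CPM.

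In 3 of the 4 knockout comparisons most of the tested collagens rose, in the HP1 set 9 of 19 did, and Col18a1 fell in all 4. In the panel knockout 21 of 32 tested collagens rose, against 23.8% of all tested genes, and 2 fell, against 23.2% of all genes. In the SUV2 set 23 of 26 rose (36.9% of all genes) and 1 fell (34.9%). In the SD2 set 23 of 31 rose (31.8%) and 1 fell (27.2%), and in the HP1 set the share of all genes was 22.2% higher and 19.6% lower, and 1 collagen fell. The median log2 fold change of the tested collagens was 1.56, 1.86, 1.71 and 1.11 in the same order. The median over all tested genes lay between -0.02 and 0.02. Many chains passed the filter only through the knockout libraries, so these medians and counts lean towards increases. Restricted to chains above the filter's level in every control library, 8 of 13 rose and 2 fell in the panel, and 12 of 15 rose and 1 fell in the SUV2 set. In the SD2 set 8 of 13 rose and 1 fell, and in the HP1 set 4 of 9 rose and 1 fell. The share of all genes under the same restriction was not computed, so these restricted counts have no matching background. The replicate numbers of the panel knockout and wild type libraries pair them weakly, and with the replicate block 22 collagens were called in place of 23.

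**Figure D1:**
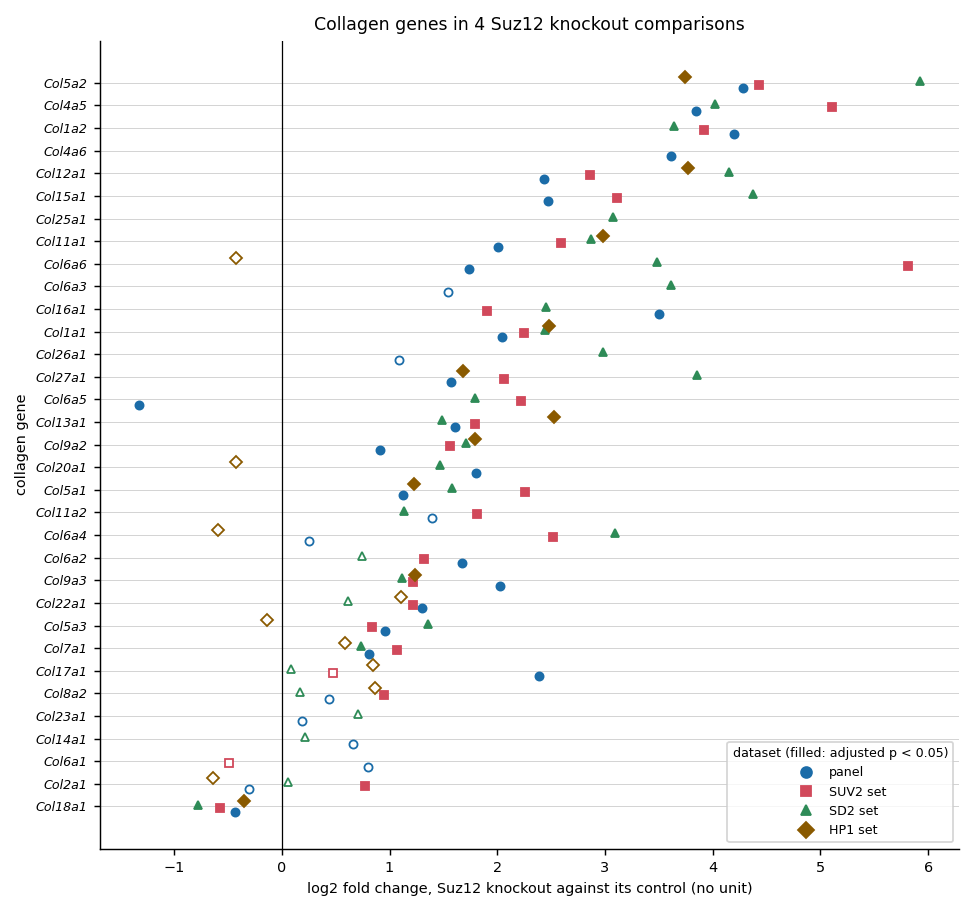
Log2 fold change (horizontal axis, no unit) of every collagen tested in at least 1 Suz12 knockout comparison (rows), with a symbol for each dataset, filled where the adjusted p is under 0.05; for Col5a2 and Col12a1 in the HP1 set, whose wild type libraries hold 0 counts, the symbol is a lower bound. Col18a1, in the bottom row, is the chain with all 4 filled symbols left of 0, and Col5a2 reaches 5.93 in the SD2 set.

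In all 4 knockout comparisons 9 collagens rose: the fibrillar chains Col1a1, Col5a1, Col5a2, Col11a1 and Col27a1, the FACIT chains Col9a2, Col9a3 and Col12a1, and the transmembrane chain Col13a1. A further 7 rose in exactly 3 knockouts: Col1a2, Col4a5, Col5a3, Col6a6, Col7a1, Col15a1 and Col16a1. Col18a1 was the 1 collagen that fell in all 4. The share of all genes meeting these rules was not computed, so the counts have no background beside them. Only 18 of the 42 collagens were tested in all 4 datasets, so a chain missing from these counts may not have been testable everywhere.

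Promoter sequence was looked at because PRC2 is known to gather at promoters rich in the dinucleotide CG. RefSeq promoters of build GRCm38.p6 were available for 33 of the 42 collagens, and CG was counted in the 250 bases before each start. CG reads the same on both strands, and no other motif was searched. The collagens that rose in 3 or more knockouts held a median of 10.5 CG (12 genes, 7 to 28), the other collagens a median of 5 (21 genes, 0 to 24), and all 27025 genes a median of 6. The promoters shown are those of 5 chains that rose in all 4 knockouts and of Col18a1, which fell in all 4. They lie at chr2:27886175-27886424, plus strand (Col5a1), chr10:61979109-61979358, minus strand (Col13a1), chr4:63215162-63215411, plus strand (Col27a1), chr4:121039316-121039565, plus strand (Col9a2), chr3:114030290-114030539, plus strand (Col11a1) and chr10:77166531-77166780, minus strand (Col18a1). Each is written 5′ to 3′ on the gene's own strand, with CG in capitals:
Col5a1: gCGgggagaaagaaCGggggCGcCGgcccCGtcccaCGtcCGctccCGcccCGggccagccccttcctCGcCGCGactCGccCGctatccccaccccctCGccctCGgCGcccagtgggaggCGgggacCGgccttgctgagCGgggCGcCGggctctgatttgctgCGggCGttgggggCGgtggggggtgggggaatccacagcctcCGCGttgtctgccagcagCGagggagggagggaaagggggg
Col13a1: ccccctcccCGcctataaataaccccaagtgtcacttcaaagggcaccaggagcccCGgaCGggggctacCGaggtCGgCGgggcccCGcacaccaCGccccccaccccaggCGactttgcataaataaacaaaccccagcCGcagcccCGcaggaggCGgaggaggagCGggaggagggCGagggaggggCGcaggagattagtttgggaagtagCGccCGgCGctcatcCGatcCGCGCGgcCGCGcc
Col27a1: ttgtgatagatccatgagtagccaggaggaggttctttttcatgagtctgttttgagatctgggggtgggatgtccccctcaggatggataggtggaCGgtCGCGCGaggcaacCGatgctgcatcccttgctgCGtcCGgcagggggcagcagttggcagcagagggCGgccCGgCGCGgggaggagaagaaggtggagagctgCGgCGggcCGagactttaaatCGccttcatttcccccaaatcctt
Col18a1: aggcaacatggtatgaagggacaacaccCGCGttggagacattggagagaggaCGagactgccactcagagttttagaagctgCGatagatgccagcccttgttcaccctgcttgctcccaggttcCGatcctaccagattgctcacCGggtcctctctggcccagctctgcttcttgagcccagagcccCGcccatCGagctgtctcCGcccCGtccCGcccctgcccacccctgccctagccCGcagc
Col9a2: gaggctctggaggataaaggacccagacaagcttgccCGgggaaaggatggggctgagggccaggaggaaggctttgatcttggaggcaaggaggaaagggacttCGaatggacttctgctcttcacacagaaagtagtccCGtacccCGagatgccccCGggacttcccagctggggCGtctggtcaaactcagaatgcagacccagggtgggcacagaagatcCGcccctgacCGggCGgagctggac
Col11a1: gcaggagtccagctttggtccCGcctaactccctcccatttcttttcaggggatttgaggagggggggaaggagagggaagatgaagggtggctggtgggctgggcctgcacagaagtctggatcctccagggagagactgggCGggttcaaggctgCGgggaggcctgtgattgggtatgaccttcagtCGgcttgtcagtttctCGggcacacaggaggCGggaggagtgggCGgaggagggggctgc
The Col5a1 window held 28 CG, a number reached by 7.26% of all promoters, and the Col13a1 window held 24, reached by 11.7% of promoters. Col27a1 held 15 (27.5%), Col18a1 12 (33.8%), Col9a2 9 (40.7%) and Col11a1 7 (46.5%). The falling gene Col18a1 thus lay between rising genes in this count, and the windows say nothing of what binds there.

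Among the fibrillar chains, 7 of 9 tested rose in the panel knockout and 9 of 9 in the SUV2 set. In the SD2 set 8 of 9 rose and in the HP1 set 5 of 7, and none fell. Of all genes 23.8%, 36.9%, 31.8% and 22.2% rose in the same order. Some chains were nearly absent from the control libraries, such as Col5a2 with 0 counts in wild type cells of the HP1 set. The class counts therefore lean towards increases. Col11a1, the chain that helps set the width of cartilage fibrils, stood at 6.07, 5.68 and 6.33 CPM in wild type panel cells and at 23.5, 23 and 26.2 CPM in the knockout. The groups did not overlap, and the log2 fold change was 2.01 (SE 0.14). In the other 3 knockouts Col11a1 rose by 2.60 (SE 0.09), 2.87 (SE 0.10) and 2.98 (SE 0.22) on the log2 scale.

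Col5a1, a chain that starts the assembly of collagen I fibres, had the highest CPM, uncorrected for length, among rising fibrillar chains in the panel knockout. It stood at 11.8, 14.6 and 10.3 CPM in wild type cells and 29.7, 26.3 and 24.6 CPM in the knockout, without overlap. Its log2 fold change was 1.13 (SE 0.14) there and 2.26 (SE 0.06), 1.58 (SE 0.07) and 1.23 (SE 0.13) in the SUV2, SD2 and HP1 sets. Its partner chain Col5a2 started from almost nothing, at 0.221, 0 and 0.234 CPM in wild type panel cells, and reached 2.60, 2.43 and 3.41 CPM in the knockout. All knockout libraries were above all wild type libraries, with a log2 fold change of 4.28 (95% counting interval 2.87 to 6.19). In the HP1 set the wild type libraries held 0 counts of Col5a2, and the knockout was at least 3.74 higher on the log2 scale, with the floor set at 3 counts over the group.

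The collagen I chains, the main fibre of bone, tendon and skin, rose from a low base. Col1a1 went from 0.555 ± 0.223 to 2.24 ± 0.570 CPM (SD, n = 3) in the panel, a log2 fold change of 2.04 (counting interval 1.23 to 2.96). Col1a2 had 2 counts in all wild type panel libraries and 42 in the knockout, a log2 ratio of 4.20 (counting interval 2.25 to 7.29). Col2a1, the main cartilage collagen, behaved differently: it rose in the SUV2 set (log2 0.77, SE 0.13) and passed the test in none of the other 3 knockouts.

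Col27a1, a fibrillar chain of cartilage, had log2 fold changes of 1.57, 2.07, 3.85 and 1.68 in the panel, SUV2, SD2 and HP1 sets. In the SD2 set it stood at 3.37, 3.64 and 2.77 CPM in the R line and 45.7, 48.2 and 48.1 CPM in RS, a log2 fold change of 3.85 (SE 0.10). In the SUV2 set the same gene reached only 8.68, 7.12 and 7.61 CPM in RS from 1.90, 1.60 and 2.11 CPM in R, a log2 fold change of 2.07 (SE 0.13). Both sets used the RS line of the same name, in datasets fitted separately, and the difference between them was not tested.

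The FACIT chains rose in 6 of 7 tested cases in the panel and 5 of 5 in the SUV2 set. In the SD2 set 5 of 7 rose and in the HP1 set 3 of 5. None fell, and the shares of all genes are those given for the fibrillar chains. Chains nearly absent from the control libraries, such as Col12a1, lean these counts towards increases as well. Col9a2, a chain of the collagen IX that coats cartilage fibrils, stood at 9.17, 8.07 and 8.08 CPM in wild type panel cells and 12.8, 16.1 and 18.8 CPM in the knockout, which did not overlap. Its log2 fold change was 0.92 (SE 0.13), and 1.57 (SE 0.08), 1.71 (SE 0.12) and 1.79 (SE 0.23) in the other sets. Its partner Col9a3 rose by 2.03 in the panel (counting interval 1.36 to 2.77). The exons of Col9a3 share 234 bases (6.07%) with the antisense gene Tcfl5, and strand use in the counting is not given in the sources used here. Col12a1, a FACIT chain of tendon and other loaded tissues, rose from 5 to 31 counts over the panel libraries (log2 2.44, counting interval 1.06 to 4.16), and from 0 counts in the HP1 set (at least 3.77).

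Of the other classes, the basement membrane chain Col4a5 rose from 2 to 33 counts in the panel (log2 ratio 3.85, counting interval 1.88 to 6.95) and from 1 to 38 counts in the SUV2 set (5.11, counting interval 2.55 to 10.45). Its head-to-head neighbour Col4a6, whose start lies 1308 bases away on chromosome X, rose from 1 to 14 counts in the panel (3.61, counting interval 0.90 to 9.01). Col13a1, a transmembrane collagen of cell contacts and the neuromuscular junction, rose by 1.61 (SE 0.32) in the panel. Among the collagen VI chains, which build beaded microfilaments, 2 of 6 rose and 1 fell in the panel, 4 of 5 rose in each RBBP5-tagged set, and neither of the 2 tested rose or fell in the HP1 set. Over all genes 23.8% rose and 23.2% fell in the panel, so its collagen VI counts lie near the share of all genes. In the SUV2 set 36.9% of all genes rose, and in the SD2 set 31.8%. Chains nearly absent from the control libraries, such as Col6a6 in the SUV2 set, lean the collagen VI counts towards increases.

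The chains called in 3 knockouts differed in how much of their change rests on few counts. Col5a3, the minor chain of collagen V, was well measured in the panel, at 12.2 CPM in wild type cells and 23.7 CPM in the knockout, and rose by 0.96 (SE 0.14), 0.83 (SE 0.20) and 1.36 (SE 0.18) in the panel, SUV2 and SD2 sets. Col7a1, the anchoring fibril collagen of skin, rose by 0.81 (SE 0.25), 1.07 (SE 0.14) and 0.74 (SE 0.14). Col15a1, a basement membrane relative of Col18a1, went from 3 to 19 counts in the panel (log2 ratio 2.47, counting interval 0.70 to 4.87) and from 4 to 38 in the SUV2 set (3.11, counting interval 1.64 to 5.06), so it rose where Col18a1 fell. Col16a1, a FACIT chain, went from 1 to 13 counts in the panel (3.51, counting interval 0.77 to 8.92) and from 18 to 74 in the SUV2 set (1.91, counting interval 1.14 to 2.73). Col6a6 went from 17 to 65 counts in the panel (1.74, counting interval 0.95 to 2.60) and from 1 to 62 in the SUV2 set (5.82, counting interval 3.29 to 11.14).

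The remaining tested chains were called in fewer sets. Col6a4 and Col11a2 rose in the SUV2 and SD2 sets, by 2.52 and 3.09 for Col6a4 and 1.81 and 1.14 for Col11a2. Col6a2 and Col22a1 rose in the panel and the SUV2 set, and Col20a1 in the panel and the SD2 set. Col4a6 and Col17a1 were called in the panel alone, Col2a1 and Col8a2 in the SUV2 set alone, and Col6a3, Col25a1 and Col26a1 in the SD2 set alone, where Col26a1 went from 4 to 35 counts (2.98, counting interval 1.499 to 4.94). Col4a6 passed the filter in no knockout comparison but that of the panel, and Col25a1 in none but that of the SD2 set, so their calls have no counterpart elsewhere. Col6a1, Col14a1 and Col23a1 were called in no knockout in which they were tested. Whether these chains differ between sets was not tested.

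Col6a5 was the 1 collagen called in opposite directions. In the panel it stood at 0.883, 0.797 and 0.937 CPM in wild type cells and 0.465, 0.485 and 0.0946 CPM in the knockout. It fell by 1.32 on the log2 scale there (counting interval -2.498 to -0.24), and rose by 2.22 in the SUV2 set (1.11 to 3.53) and by 1.80 in the SD2 set (SE 0.28).

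Col18a1 fell modestly but with little spread. It stood at 588, 591 and 566 CPM in wild type panel cells and 434, 419.8 and 435 CPM in the knockout, and the groups were well apart. The log2 fold change was -0.44 (SE 0.06) in the panel, -0.57 (SE 0.03) in the SUV2 set, -0.78 (SE 0.04) in the SD2 set and -0.35 (SE 0.05) in the HP1 set. Because this gene outweighs the others, the summed counts of the 42 genes fell while many chains rose. The sum leaves out Col4a1 and Col4a2, so it is not total collagen mRNA. Those genes rose by 4.96 and 5.53 on the log2 scale in the panel, and by 3.64 and 3.91 in the HP1 set. The sum over the 42 genes was 644 CPM in wild type panel cells and 569 CPM in the knockout, and without Col18a1 it was 62.3 and 139.6 CPM, or 2.24-fold higher. Without Col18a1 the knockouts of the SUV2, SD2 and HP1 sets were 3.78-fold, 3.66-fold and 1.97-fold higher.

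The genes that make, process and bind collagen moved unevenly in the same knockouts. Of the genes for collagen biosynthesis and export, 13 of 23 tested rose and 5 fell in the panel, and 10 of 20 rose and 5 fell in the HP1 set. Serpinh1, the collagen chaperone HSP47, stood at 12.9, 10.9 and 7.85 CPM in wild type panel cells and 122.5, 79.1 and 52.3 CPM in the knockout, without overlap, and rose by 3.00 on the log2 scale in both the panel (SE 0.33) and the HP1 set (SE 0.16). P4ha2, a prolyl hydroxylase subunit that stabilises the helix, rose by 2.80 (SE 0.23) in the panel, and Plod2, a lysyl hydroxylase, by 1.53 (SE 0.10). Of the processing and crosslinking genes 5 of 12 rose and 1 fell, among them Bmp1, which trims procollagen (1.79, SE 0.20). Of the collagen receptors 2 of 7 rose and 1 fell: the receptor kinase Ddr2 rose by 3.42 (SE 0.18), and its relative Ddr1 fell by 0.52 (SE 0.15). Of the collagen-binding proteoglycans and glycoproteins 5 of 6 rose and of the collagen-degrading proteases and their inhibitors 4 of 8 rose and 1 fell. Of 14 basement membrane partners, which include Col4a1 and Col4a2, 9 rose. The panel background was 23.8% higher and 23.2% lower throughout.

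Markers of other cell types moved with the knockout. All 16 primitive and parietal endoderm markers, Col4a1 and Col4a2 among them, rose in the panel, and their summed level went from 353.5 to 419.5 CPM in wild type libraries to 1494 to 2691 CPM in the knockout. In the RS line of the SD2 set the same sum was 6952 to 7267 CPM, against 290.5 to 305.2 CPM in R. Of the fibroblast and mesenchyme markers 6 of 14 were tested in the panel and 6 rose, 2 of them the collagens Col1a1 and Col1a2. The 11 that are not collagens summed to 7.97 to 9.83 CPM in wild type libraries, with Lum, Twist2, Prrx1, Fap and S100a4 at 0, and to 39.3 to 46.9 CPM in the knockout, with Fap at 0. Of the chondrocyte markers, some of which are collagens, 5 of 9 tested rose, of the neural crest markers 4 of 6, and of the epithelial markers 4 of 6. Of 14 pluripotency markers 5 rose and 8 fell. Of all genes tested in the panel, 23.8% rose and 23.2% fell. The part of other cell types in the collagen changes was not tested.

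Putting wild-type SUZ12 back returned most chains towards the wild type level. Of 32 tested collagens 21 fell and 4 rose against the knockout, where 24.2% of all genes fell and 24.4% rose, with a median log2 fold change of -1.48. This comparison shares its knockout libraries with the one above. Those libraries differ from the rescue libraries in depth and naming, so line and batch cannot be told apart here. Against S12N, which uses other libraries, 18 fell and 3 rose (23.8% and 23.9% of all genes); this second control was chosen after seeing the data. Col11a1 stood at 4.39, 5.64 and 4.19 CPM in the rescue, below every knockout library, a log2 fold change of -2.35 (SE 0.13). Col5a2 stood at 0.374, 0.174 and 0.171 CPM (-3.61, counting interval -4.51 to -2.81). Col18a1 was back at 603, 562 and 584 CPM, a rise of 0.44 (SE 0.06). The primitive endoderm markers summed to 434.2 to 496 CPM in the rescue and the fibroblast markers to 8.39 to 11.4 CPM, with Fap at 0, and their part in these changes was not tested.

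Against wild type cells 4 collagens of the rescue line differed, 2 in each direction, where 5.67% of all genes were higher and 4.73% lower. The wild type libraries also differ from the rescue libraries in depth and naming, so line and batch cannot be told apart. Col7a1 was at 3.73 CPM in the rescue and 1.40 CPM in wild type cells (log2 1.40, SE 0.22). Col4a5 had 45 counts against 2 (log2 ratio 3.26, counting interval 1.32 to 6.34). Col8a2 (-0.91, SE 0.20), a network collagen of the cornea, and Col5a3 (-0.57, SE 0.14) were lower.

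With S12N alone, 26 of 32 tested collagens did not pass the test against the knockout. The knockout libraries differ from the S12N libraries in depth and naming, so line and batch cannot be told apart here. None rose and 6 of 32 fell, a larger share than the 1.92% of all genes that fell, where 1.9% of all genes rose. Col1a2 was the largest of these, at 0.233, 0.156 and 0.0467 CPM against 1.95, 0.873 and 1.14 CPM in the knockout, without overlap (log2 -3.20, counting interval -4.42 to -2.14). The others were Col5a2 (-1.10), Col6a6 (-1.09), Col2a1 (-0.83), Col11a1 (-0.52) and Col18a1 (-0.20). This count is fragile: it was 2 without knockout replicate 3, 3 without knockout replicate 1 and 3 without S12N replicate 2.

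Most collagens that differed between the active S12N:SUV2 fusion and its dead form were lower with the active one. Of 32 tested collagens 16 were lower with the active form (12.8% of all genes) and 2 were higher (9.82%), with a median log2 difference of -0.56. Without S12N:SUV2 replicate 2 the count called was 11 in place of 18. The primitive endoderm markers summed to 812.3 to 912.1 CPM with the active form and 2072 to 2619 CPM with the dead one, and the fibroblast markers to 18.9 to 20.5 and 29.9 to 38.6 CPM, and their part was not tested. The largest differences were in rare chains. Col6a2 had 3 counts over the active libraries and 46 over the dead ones (log2 ratio -3.80, counting interval -6.13 to -2.17). Its neighbour Col6a1, 85161 bases away on chromosome 10, had 3 and 25 (-2.92, counting interval -5.30 to -1.21). Col1a2 stood at 0.163, 0.0345 and 0.0969 CPM with the active fusion and 0.933, 1.09 and 0.923 CPM with the dead one, without overlap (-3.38, counting interval -4.74 to -2.27).

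More abundant chains differed less between the active and dead S12N:SUV2 lines. Col22a1, a FACIT chain of muscle-tendon junctions, stood at 0.734, 1.00 and 0.679 CPM against 2.201, 2.58 and 2.58 CPM, all active libraries below all dead ones (-1.59, SE 0.22). Col11a1 was at 17.3 ± 0.957 against 21.4 ± 2.21 CPM (SD, n = 3; -0.30, SE 0.11). Col18a1 was the main chain in the other direction, at 670, 662 and 638 CPM against 464, 463 and 447 CPM (0.52, SE 0.06). Against the rescue, the active fusion line was higher for 12 collagens (24% of all genes) and lower for 6 (24.3%), in a comparison added after seeing the data: Col11a1 remained 1.87 above the rescue (SE 0.13), and Col18a1 0.17 above it (SE 0.06).

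Few collagens differed between the active S12N:SD2 fusion and its dead form, in counts near the share of all genes. Of 32 tested, 4 were lower (10% of all genes) and 2 higher (8%), and the count called was 3 in place of 6 without dead-form replicate 3. Col11a1 stood at 10.1, 12.4 and 11.7 CPM with the active form and 21.7, 23.6 and 17.9 CPM with the dead form, without overlap (-0.88, SE 0.11). Col1a2 (-1.78, counting interval -2.76 to -0.89), Col1a1 (-0.66, SE 0.22) and Col18a1 (-0.36, SE 0.06) were also lower. Col11a2, the partner of Col11a1 in cartilage, had 62 counts against 9 and was higher (2.69, counting interval 1.67 to 3.88). For Col18a1 the active SUV2 form was above its dead form and the active SD2 form below its own; the difference between the 2 fusions was not tested.

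The dead forms were not identical to S12N alone. Dead S12N:SUV2* had 6 collagens higher (12% of all genes) and 5 lower (9.05%), and dead S12N:SD2* 4 higher (6.97%) and 2 lower (6.11%). Col1a2 was higher in both (2.76, counting interval 1.77 to 3.94, and 2.28, counting interval 1.23 to 3.503), and Col5a3 was lower in both (-0.59 and -0.47). The 2 comparisons share the S12N libraries. Leaving out single libraries moved the first count, 11 in all, to 6 without S12N replicate 2 or dead-form replicate 1 and to 7 without S12N replicate 1 or dead-form replicate 2. It moved the second, 6 in all, to 3 without S12N replicate 2.

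**Figure D2:**
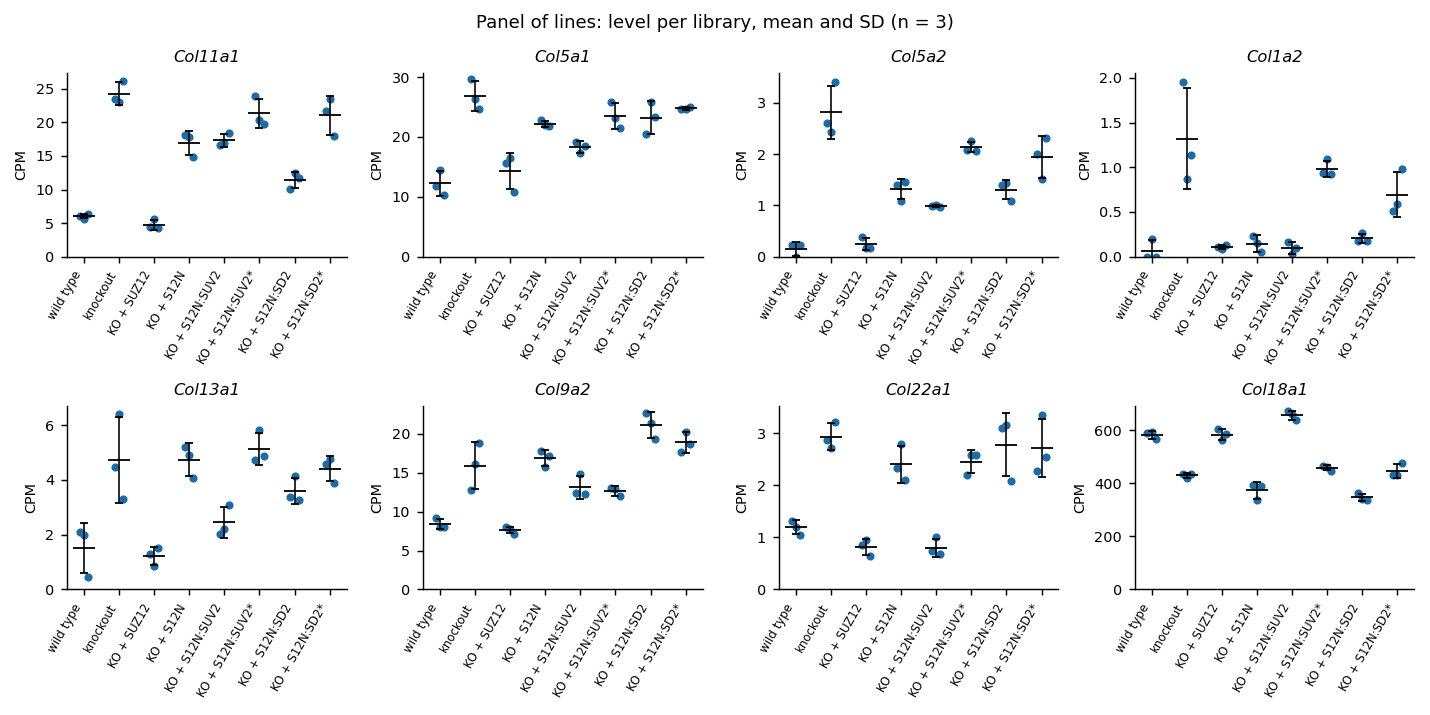
Level of 8 collagens in the panel (vertical axes, CPM), with a point for each library and a line and bar for the mean and SD of 3 libraries in each of 8 groups along the horizontal axis. Col11a1, Col5a1, Col5a2 and Col9a2 are low in wild type and rescue and high in the knockout, Col22a1 is also low with active S12N:SUV2, and Col18a1 is lower in the knockout than in wild type, lowest at 347 CPM with S12N:SD2 and highest at 656 CPM with S12N:SUV2.

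In the RBBP5-tagged cells under DMSO, S12N:SUV2 lowered most collagens of the Suz12 knockout. Of 26 tested, 20 fell (25.4% of all genes) and 1 rose (23.3%) against RS, with a median log2 difference of -1.05; the RS libraries are those of the knockout comparison above. Col11a1 stood at 11.15, 10.96 and 10.88 CPM with the fusion and 29.4, 30.8 and 31.5 CPM in RS, without overlap (-1.48, SE 0.07). Col5a1 stood at 20.2, 21.1 and 19.8 CPM against 42.4, 45.5 and 45.97 CPM (-1.13, SE 0.05). Col22a1 had 16 counts against 166 (-3.26, counting interval -4.10 to -2.51). Its group mean was 0.270 CPM with the fusion and 1.13 CPM in the R line, a difference that was not tested. Col18a1 was again the chain that rose (0.47, SE 0.03). Markers of other cell types moved as well: the primitive endoderm markers summed to 2258 to 2410 CPM in RS and 705.8 to 760 CPM with the fusion, with none at 0, and the 11 fibroblast markers to 30.8 to 37.1 CPM, with Fap and S100a4 at 0, and 18.1 to 19.9 CPM, with Postn and Fap at 0. Their part in the collagen changes was not tested.

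With S12N-SD2 in the tagged cells, 6 of 31 tested collagens fell (14.9% of all genes) and 4 rose (13%) against RS, counts near the share of all genes. Col27a1 stood at 12.2, 10.7 and 9.60 CPM with the fusion, all below the RS libraries (-2.13, SE 0.08). Col11a1 was at 11.98, 10.93 and 11.89 CPM against 32.1, 33.5 and 32.3 CPM (-1.49, SE 0.08). In the other direction, Col9a2 stood at 25.6, 27.6 and 26.2 CPM against 15.2, 15.5 and 14.7 CPM (0.81, SE 0.10), and Col5a1 at 44.5, 46.3 and 43.1 CPM against 36.5, 35.4 and 37.6 CPM (0.29, SE 0.06). Col18a1 had a log2 difference that did not pass the test, at 368 against 355 CPM. The primitive endoderm markers summed to 6952 to 7267 CPM in RS and 1134 to 1152 CPM with the fusion, with none at 0, and the fibroblast markers to 29.5 to 32.4 CPM, with Postn and Fap at 0, and 42.2 to 48.4 CPM, with Dcn and Fap at 0, and their part was not tested. The 2 fusions were measured in different datasets, and the difference between them was not tested.

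When RBBP5 was degraded for 24 h, some collagens fell in every line. In the SUV2 set 8 of 26 fell (26.2% of all genes) and 3 rose (25.4%) in R, and 9 fell (25.1%) and 3 rose (23.2%) in RS. In the SD2 set 10 of 31 fell (20.2%) and 8 rose (21.6%) in R, and 9 fell (22.3%) and 2 rose (15.9%) in RS. In the fusion lines 9 fell (27%) and 3 rose (25.9%) with S12N:SUV2, and 10 fell (22.9%) and 5 rose (18.5%) with S12N-SD2. Most of these counts lie near the share of all genes. In RS of the SUV2 set the 11 fibroblast markers had a mean sum of 33.2 CPM under DMSO and 21.15 CPM under dTAG-13. In RS of the SD2 set the sums were 31.1 and 14.9 CPM, and both fusion lines were also lower under dTAG-13. In R the sums were higher under dTAG-13, at 10.45 against 7.23 CPM in the SUV2 set and 12.6 against 9.89 CPM in the SD2 set. The part of these markers was not tested. The 6 collagens Col5a3, Col7a1, Col8a2, Col9a2, Col13a1 and Col27a1 fell under dTAG-13 in all 6 comparisons with DMSO, in which R and RS appear once in each set. The share of all genes that fell in all 6 was not computed, so this recurrence has no background beside it. Rbbp5 mRNA was not lowered in the SUV2 set (63.9 CPM against 56.5 CPM in R); the tag acts on the protein.

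Col9a2 fell in each of these comparisons. In R of the SD2 set it stood at 4.74, 5.53 and 3.51 CPM under DMSO and 0.910, 0.865 and 1.51 CPM under dTAG-13, without overlap (-2.14, SE 0.20). In RS it stood at 15.2, 15.5 and 14.7 CPM and 8.79, 9.26 and 9.93 CPM (-0.70, SE 0.11). In the SUV2 set the changes were -1.71 (SE 0.13) in R and -0.91 (SE 0.07) in RS. Col13a1 fell from 1.41 to 0.368 CPM in R of the SUV2 set (-1.94, counting interval -2.69 to -1.25) and from 4.89 to 2.30 CPM in RS (-1.10, SE 0.16).

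Other chains rose when RBBP5 was degraded, in R and in some lines without intact SUZ12. Col5a1 stood at 8.68, 8.83 and 10.5 CPM under DMSO and 17.8, 17.0 and 18.1 CPM under dTAG-13 in R of the SUV2 set, without overlap (0.92, SE 0.07), and rose by 0.80 (SE 0.07) in R of the SD2 set. In RS it was already high, at 44.6 CPM under DMSO and 46.8 CPM under dTAG-13 in the SUV2 set. Col12a1 rose from 7 to 40 counts in R of the SUV2 set (2.47, counting interval 1.30 to 3.87) and from 3 to 47 counts in R of the SD2 set (4.24, counting interval 2.60 to 6.57). Col6a4, a collagen VI chain, rose in R of both sets (1.24, counting interval 0.52 to 2.01, and 1.498, counting interval 0.78 to 2.25). Col6a5 rose in RS of both sets, by 1.18 (SE 0.27) and 1.56 (SE 0.18). Some chains that rose in R also rose in other lines. These were Col5a1 in RS with S12N:SUV2, Col12a1 in RS with S12N-SD2, and Col6a4 in RS of the SD2 set and with S12N-SD2.

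The test of whether dTAG-13 acted differently in RS and R called 5 of 26 collagens in the SUV2 set, 3 with a more positive change in RS (10.7% of all genes) and 2 with a more negative one (8.83%). In the SD2 set it called 10 of 31, 3 more positive (5.19%) and 7 more negative (6.92%). Col5a1, Col12a1 and Col9a2 were called in both sets and in the same direction. For Col5a1 the change in RS was 0.85 lower than in R in the SUV2 set and 0.73 lower in the SD2 set on the log2 scale. For Col9a2 it was 0.79 and 1.44 higher. In the SD2 set, the dTAG-13 libraries of R include replicate 3, which stood apart from its partners: its counts differed from theirs by chi-square values of 82.36 and 68.8 per gene, against 2.12 between the other pair. Without it 19 collagens were called in R, 9 rising and 10 falling, and the test of the difference called 9. The calls of Col6a4 and Col6a5 were then lost, with adjusted p = 0.0671 and 0.0546 by edgeR's test.

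**Figure D3:**
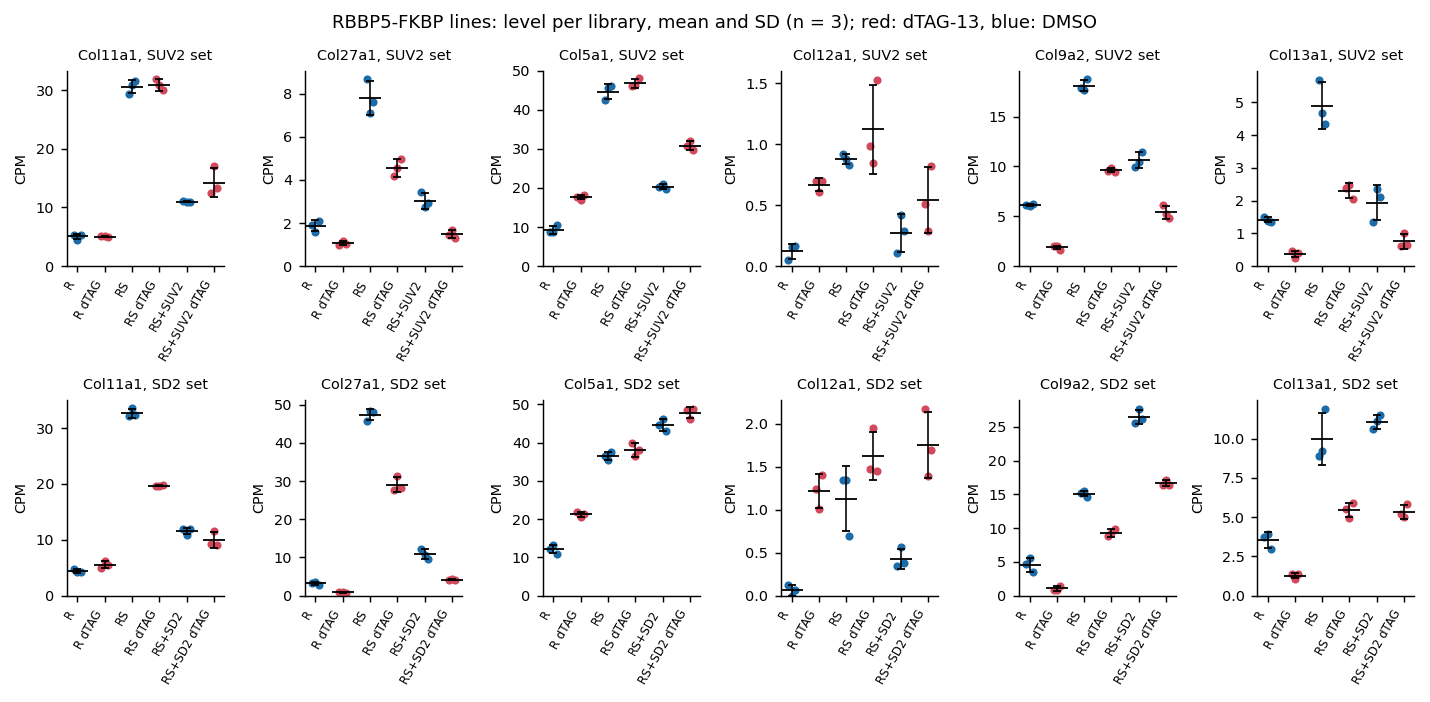
Level of 6 collagens (vertical axes, CPM) in the R, RS and fusion lines of the SUV2 set (upper row) and SD2 set (lower row), blue for DMSO and red for dTAG-13, with a point for each library and the mean and SD of 3. Col9a2 and Col13a1 are lower under dTAG-13 in every line, Col5a1 and Col12a1 are higher under it in R, and Col27a1 reaches 47.3 CPM in RS of the SD2 set.

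In the degron line collagens were called from 24 h of IAA on. At 2, 4 and 8 h of IAA none of the 15 tested collagens passed edgeR's test, where no gene of 14016 did at 2 h (0%), 1 rose at 4 h (0.00713%), and 4 rose (0.0285%) and 1 fell (0.00713%) at 8 h, and 295, 262 and 885 genes had an unadjusted p under 0.05. DESeq2 also called 0 collagens at these times. So few genes passed that a change at these times may not have been detectable. Col5a1 lay above every DMSO library at 2 h (log2 0.84, SE 0.37, adjusted p = 1 by edgeR's test) and 8 h (0.86, SE 0.36, adjusted p = 0.683), at means of 2.31 and 2.34 CPM against 1.29 CPM. Col2a1 was also apart from DMSO at 8 h, with 33 counts against 15 (1.13, counting interval 0.20 to 2.11, adjusted p = 0.86). Col9a2 had 42 counts at 8 h against 20, with overlapping libraries (1.05, counting interval 0.26 to 1.90). At 24 h 5 collagens rose (16.4% of all genes) and none fell (17.9%), and at 48 h 8 rose (20.2%) and 1 fell (23.8%). The time points share their DMSO libraries.

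Col5a1 led the increase in level. It stood at 1.67, 1.67 and 0.528 CPM under DMSO, 3.69, 4.40 and 8.42 CPM at 24 h and 7.80, 7.40 and 6.65 CPM at 48 h. Both late groups lay above the DMSO libraries, with log2 fold changes of 2.14 (SE 0.35) and 2.502 (SE 0.34). Col7a1 rose from 11 counts under DMSO to 31 at 24 h (2.37, counting interval 1.35 to 3.52) and 47 at 48 h (2.73, counting interval 1.75 to 3.82). Col11a1 and Col9a2 also rose at both times, by 2.34 (SE 0.45) and 2.13 (counting interval 1.38 to 2.95) at 48 h. Col1a1, Col5a2, Col27a1 and Col2a1 were called at 48 h only, and Col13a1 at 24 h only; the differences between times were not tested.

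Col26a1, a collagen known from testis and ovary, had the opposite course in the degron line. It stood at 5.91, 8.45 and 9.16 CPM under DMSO, 12.2, 11.6 and 9.72 CPM at 24 h and 0.876, 1.499 and 0.843 CPM at 48 h. The 48 h libraries were below every other group (-2.88, SE 0.28). Col18a1, which fell in the 4 knockouts, stood at 66.6, 49.6 and 52.7 CPM under DMSO and 68.5, 71.1 and 78.5 CPM at 48 h and did not pass the test. The primitive endoderm markers summed to 590.4 to 617 CPM under DMSO and 443.4 to 468.8 CPM at 48 h in this line, though 7 of the 14 tested rose and 1 fell.

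The third 24 h library stood apart from the other two, with chi-square values of 150.8 and 236.5 per gene against 19.8 between them. Its Col18a1 level was 77.5 CPM against 37.8 and 34.7 CPM, and its Suz12 level was 210.2 CPM against 105.4 and 93.2 CPM. Without it 4 collagens rose and 1 fell at 24 h: Col11a1 and Col13a1 were no longer called, Col26a1 rose by 0.59 (adjusted p = 0.0266), and Col18a1 fell by 0.64 (SE 0.14). The count was 8 without replicate 2 of the 24 h group. The 14 pluripotency markers summed to 8309 to 18340 CPM over the 24 h libraries, with a mean of 13750 CPM. The range was 8216 to 9756 CPM under DMSO and 7888 to 8472 CPM at 48 h. A mean that high needs more than the highest library above the DMSO range. The library that stood apart from its partners need not be the unusual one.

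**Figure D4:**
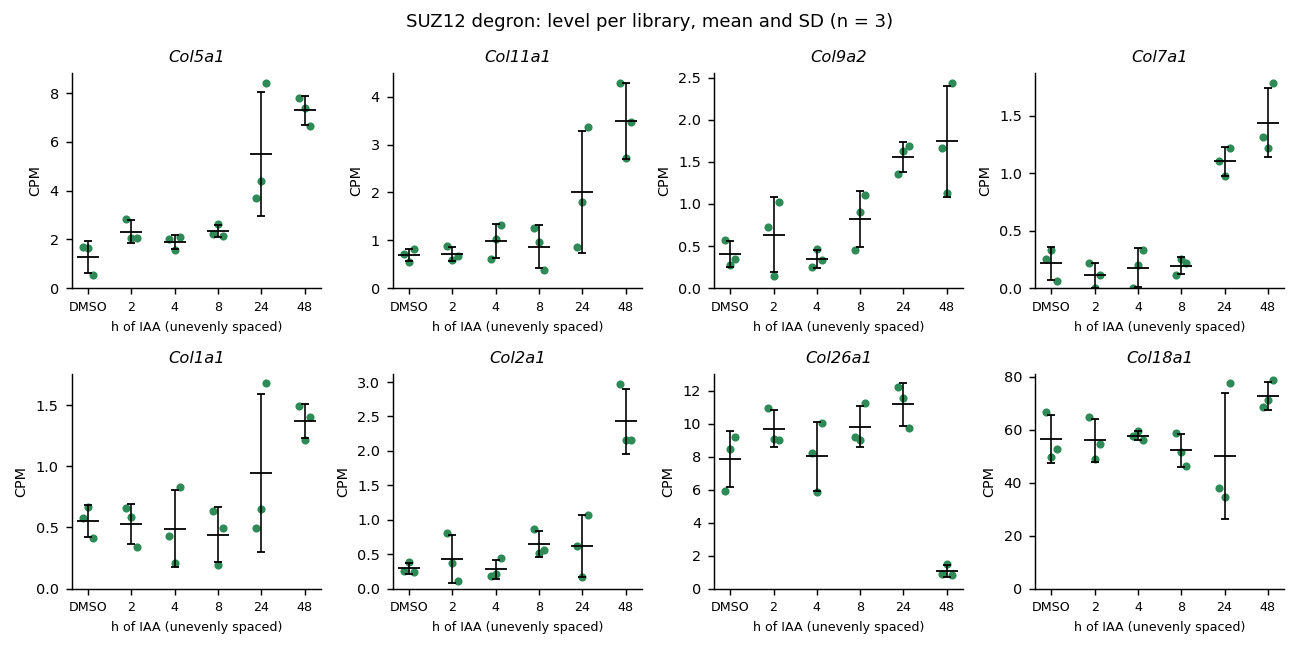
Level of 8 collagens in the SUZ12 degron line (vertical axes, CPM) under DMSO and after 2 to 48 h of IAA (horizontal axes, h, unevenly spaced), with a point for each library and the mean and SD of 3. Col5a1, Col7a1 and Col9a2 are higher at 24 and 48 h, Col2a1 at 48 h, Col26a1 falls to 1.07 CPM at 48 h, and the third 24 h library is high for Col18a1.

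In the HP1 set, few of the raised collagens passed the test for a fall with full-length SUZ12. Of 19 tested, 3 fell (14.1% of all genes) and 1 rose (12.3%) against the knockout, counts near the share of all genes. Col11a1 stood at 17.6, 17.6 and 11.7 CPM in the knockout and 5.87, 7.57 and 6.61 CPM with full-length SUZ12, without overlap (-1.27, SE 0.18). It remained above the wild type libraries of 2.02, 2.52 and 1.27 CPM (1.71, SE 0.24). Col9a2 fell by 1.40 (SE 0.22) and Col5a1 by 0.72 (SE 0.12), and Col18a1 rose by 0.45 (SE 0.05). The other chains raised in this knockout did not pass the test. Their log2 fold changes ran from -1.10 (SE 0.43) for Col13a1 to -0.13 (SE 0.42) for Col9a3. Against wild type cells the full-length line had 6 collagens higher (11% of all genes) and 1 lower (8.13%). In this line Suz12 mRNA was 169 CPM, against 296 CPM in wild type cells, and the primitive endoderm markers summed to 1064 to 1103 CPM, against 1786 to 1808 CPM in the knockout and 544 to 564.3 CPM in wild type cells.

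With S12N alone no collagen of this knockout passed edgeR's test or DESeq2's, where 0.77% of all genes rose and 1.12% fell, and 1901 of 14026 genes had an unadjusted p under 0.05. Adding the HP1a chromodomain to S12N raised 3 of 19 (4.26% of all genes) and lowered none (2.72%). Col27a1 stood at 7.47, 6.02 and 6.86 CPM with S12N and 17.7, 14 and 11.1 CPM with the chromodomain fusion, without overlap (1.06, SE 0.21). Col8a2 stood at 4.06, 4.17 and 3.32 CPM against 11.98, 6.28 and 6.42 CPM (1.09, SE 0.33). Col18a1 rose from 506 ± 13.9 to 653 ± 81.5 CPM (SD, n = 3; 0.37, SE 0.05). Wild type cells stood at 657 CPM. Col11a1 and Col5a1, which full-length SUZ12 lowered, stood at 20.4 and 34.9 CPM in the fusion line against 15.3 and 29.0 CPM with S12N and did not pass the test.

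**Figure D5:**
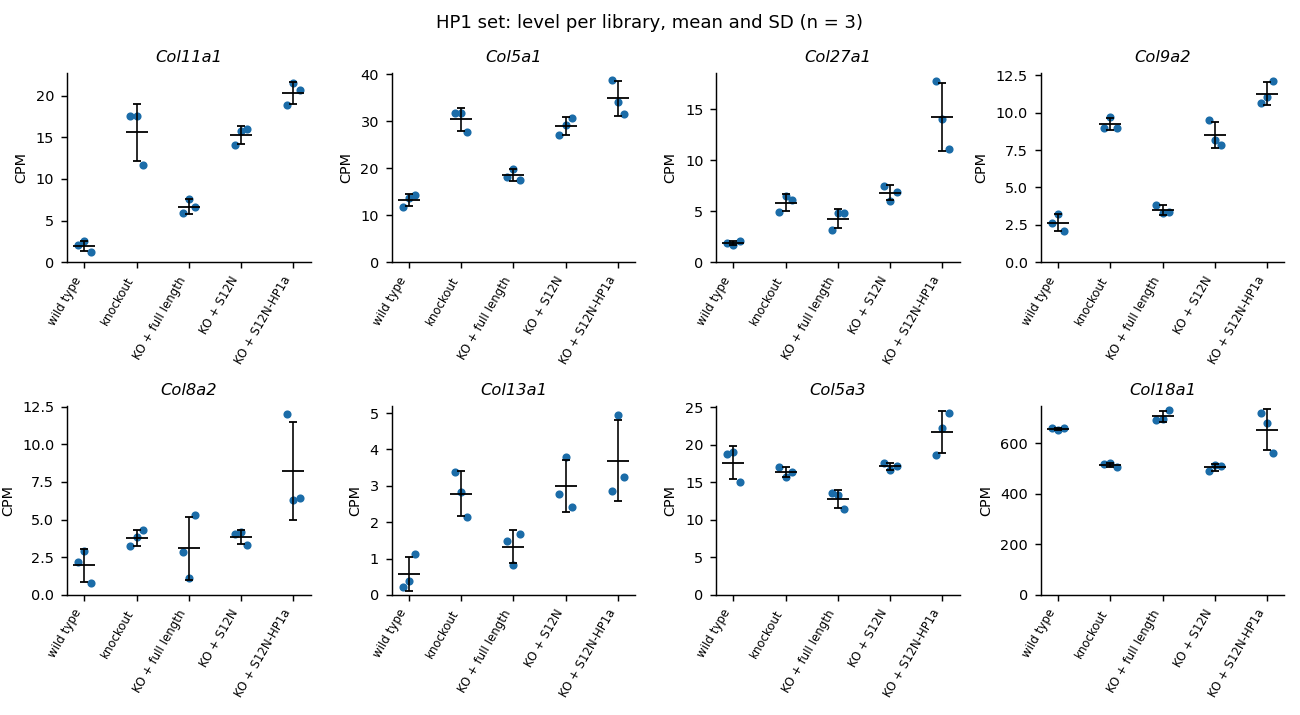
Level of 8 collagens in the HP1 set (vertical axes, CPM), with a point for each library and the mean and SD of 3 libraries in each of 5 lines along the horizontal axis. Col11a1, Col5a1 and Col9a2 are lowest in wild type cells and intermediate with full-length SUZ12, and Col27a1 and Col8a2 are highest with the HP1a chromodomain fusion.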

How the data were processed

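RNA was sequenced from 93 libraries of mouse embryonic stem cells in serum and LIF, 3 for each of 31 groups; 12 of the 105 samples had no counts here and were not analysed. The deposited values are raw read counts per gene made by the authors, per the file headers, as 2 merged tables by gene symbol (panel and SUV2 set, 53656 genes) and per-library files by Entrez ID (27179 IDs, of which 25275 were matched to a symbol). The submitters' processing notes name HISAT2 2.2.1, STAR 2.4, HTSeq 0.9.1, featureCounts 2.0.8, Trim Galore 0.4.5 and 0.6.7, Trimmomatic, Picard, DESeq2 1.46.0 and build mm10, without assigning them to datasets. Whether counting used strand is not given in the sources used here. Columns of the panel table were matched to samples by the wording of their names, which for the wild type and knockout lines differ from the titles. Both lines are shallower than the rest of the panel, and they alone carry Ebdiff and a day 0 tag in their names. Comparisons of either with the other panel lines cannot separate line from batch.

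Each dataset was fitted alone with edgeR 4.0.16 (R 4.3.3): TMM scaling, filterByExpr by group, quasi-likelihood tests on group means over all tested genes (16230 in the panel, 15757 in the SUV2 set, 15211 in the SD2 set, 14016 in the degron line, 14026 in the HP1 set), Benjamini-Hochberg adjustment at 0.05. CPM values were computed from the deposited counts with the TMM-scaled library sizes. SE is the log2 fold change divided by the root of its F statistic. Where a group held fewer than 30 counts, a 95% Clopper-Pearson interval on summed counts is given, which covers counting error only; 3 counts over the group was the floor for a group at 0. Scripts were tested on simulated counts. Alternatives were DESeq2 1.42.0, RLE size factors, no filter, a replicate block, plain library totals and each library left out. Same-numbered replicates of the panel knockout and wild type deviated together (correlations 0.120 to 0.170), so these were read as paired from the data; in no other comparison did every pair exceed 0.1. No pair of libraries agreed within sampling noise (lowest chi-square per gene 1.23). Where labels do not say that replicates are separate cultures, p-values measure only the spread between these libraries.

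The collagens and gene lists were chosen with earlier results of these data known. The collagens given library by library were those called in at least 3 of 4 knockouts, up to 12, and the 3 with the highest CPM per kilobase in wild type. In each comparison up to 6 risers and 6 fallers by size, and up to 4 genes of each list by p, were eligible. Collagens described beyond that rule were chosen after their values were seen. Marker lists covered pluripotent cells, fibroblasts, primitive endoderm, chondrocytes, neural crest and epithelium.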

Additional observations from a re-analysis of the deposited data

Results flagged for a closer look

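Collagens whose response to dTAG-13 differed between the RS and R lines are given here as the change in RS minus the change in R, on the log2 scale, from edgeR's interaction test over all genes. In the SUV2 set the values were -2.10 for Col12a1 (adjusted p = 0.0169), -0.85 for Col5a1 (1.00e-08), 0.18 for Col18a1 (0.00136), 0.79 for Col9a2 (0.000349) and 1.17 for Col5a3 (0.0198).

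In the SD2 set more collagens differed. The values were -3.56 for Col12a1 (adjusted p = 0.00201), -3.21 for Col26a1 (0.00379), -2.97 for Col5a2 (0.00439), -1.44 for Col16a1 (0.0384), -1.13 for Col6a4 (0.0244), -1.05 for Col11a1 (0.00021) and -0.73 for Col5a1 (0.000117). They were 1.13 for Col27a1 (0.00189), 1.35 for Col6a5 (0.0442) and 1.44 for Col9a2 (0.000664). Col12a1 and Col5a2 had 3 counts each in R under DMSO, so their fitted values depend on the prior count. Col26a1 had 4 counts there, so its value also rests on few counts. Without replicate 3 of R under dTAG-13, the library that stood apart, the differences of Col6a4 and Col6a5 no longer passed (-0.95, adjusted p = 0.0671, and 1.05, adjusted p = 0.0546).

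Col6a5 moved in opposite directions in different knockouts. Its log2 fold change was -1.32 in the panel (adjusted p = 0.0301), 2.22 in the SUV2 set (0.000137) and 1.80 in the SD2 set (2.74e-05). Every knockout library lay on 1 side of every control library in each set, and the difference between the sets was not tested. Col6a5 had 24 counts in wild type and 11 in knockout panel libraries.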

How the results depend on the processing

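Of 264 named pairs of a collagen and a comparison, none changed direction under any alternative run. RLE size factors kept the call in 264, DESeq2 in 252 with 9 lost, testing without a filter on low counts in 246 with 18 lost, and the replicate block in 262 with 2 lost. Counts of called collagens stayed within 1.5 times the reported count except as follows. DESeq2 called 8 collagens at 24 h of IAA against 5, and 3 in place of 5 for the interaction of dTAG-13 with the knockout in the SUV2 set. Leaving out each library in turn gave 2 to 5 collagens for S12N against the knockout, 11 to 16 for active against dead S12N:SUV2, 3 to 6 for active against dead S12N:SD2, 6 to 11 and 3 to 8 for dead S12N:SUV2* and S12N:SD2* against S12N, and 4 to 8 for 24 h of IAA; the cause was not tested.

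With the replicate block the panel knockout had 22 called collagens, Col6a2 no longer among them. Where replicate numbers did not pair the libraries, the block gave 26 for the rescue against the knockout, 13 for dTAG-13 in RS and 14 in RS with S12N-SD2 of the SD2 set, and 7 at 48 h of IAA; in the other comparisons it left the number called as it was.

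The log2 ratio of summed CPM over the 42 genes, knockout over control, was -0.18, -0.23, -0.25 and -0.18 in the panel, SUV2, SD2 and HP1 sets. With plain library totals it was -0.058, -0.12, -0.16 and -0.13. Without Col18a1 it was 1.16, 1.92, 1.87 and 0.98, as that gene holds most counts of the 42. Leaving out single libraries kept it between -0.20 and -0.16, -0.26 and -0.20, -0.27 and -0.24, and -0.19 and -0.17. Depth limits the rare chains: many rest on fewer than 30 counts over a group, and their fold changes carry wide intervals.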
